A study of Mus musculus with 24 samples.

Results

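Group 2 innate lymphoid cells (ILC2) carry a set of surface receptors, and 8 genes linked to their surface and activation state were followed here, of 39056 genes counted in ileal cells. They were listed by name as Klrg1, 1700061F12Rik, Il2ra, Icos, Pdcd1, Ptgdr2, Cxcr6 and Hs3st1, with earlier results of these data known. Their levels in CD45+ cells by genotype belong to what chose them, so these levels and the differences fitted to them are given as a description without a test. RNA was sequenced from live sorted cells of the mouse ileum with CD45, the pan-hematopoietic marker (CD45+), or without it (CD45-), after removal of Peyer's patches. Hoil1 was intact (Hoil1+/+) or mutated (Hoil1-/-), and Il4ra was floxed only (f/f) or also deleted in intestinal epithelial cells (ΔIEC), in all 4 combinations, with 3 libraries each per fraction and 24 in all. Every mouse was C57BL/6 with floxed Il4ra alleles and 9 to 10.3 weeks old, and no treatment is named. ΔIEC mice also carried Cre under the Villin promoter, which acts in intestinal epithelial cells (IECs). Hoil1-/- mice carry a mutated Rbck1 gene, which encodes HOIL1, and are described by the study as still making a small amount of an N-terminal part of the protein. Both sexes were used.

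ILC2 are tissue lymphocytes without antigen receptors that make type 2 cytokines when epithelial alarmins, neuropeptides or lipid mediators reach their receptors. Their surface holds inhibitory receptors, cytokine receptors and costimulatory molecules that T cells and natural killer (NK) cells also use, so none of these receptor genes marks ILC2 alone. Klrg1 encodes an inhibitory lectin-like receptor for cadherins, Il2ra the alpha chain of the IL-2 receptor, Icos a costimulatory receptor, Pdcd1 the checkpoint receptor PD-1, Ptgdr2 the prostaglandin D2 receptor CRTH2 and Cxcr6 the receptor of the chemokine CXCL16. Hs3st1 encodes a heparan sulfate 3-O-sulfotransferase, a Golgi enzyme, and 1700061F12Rik is an intergenic noncoding RNA.

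On GRCm38, Klrg1 (ENSMUSG00000030114.8) lies on the minus strand of chromosome 6 from 122270596 to 122282882. 1700061F12Rik (ENSMUSG00000085580.1) lies on chromosome 2, plus strand, from 9189515 to 9197477, with 659.6 kb between its end and Gata3, which encodes a transcription factor that ILC2 need. Il2ra (ENSMUSG00000026770.5) follows further along the same chromosome and strand, from 11642807 to 11693193. Icos (ENSMUSG00000026009.14, plus strand, 60977927 to 61000320) and Pdcd1 (ENSMUSG00000026285.7, minus strand, 94038305 to 94052553) are both on chromosome 1. Ptgdr2 (ENSMUSG00000034117.3) is on chromosome 19, plus strand, from 10937160 to 10942511, and its end overlaps Ccdc86 on the opposite strand. Cxcr6 (ENSMUSG00000048521.8) is on chromosome 9, plus strand, from 123806475 to 123811760, inside the bounds of Fyco1 on the opposite strand. Hs3st1 (ENSMUSG00000051022.7) is on the minus strand of chromosome 5 from 39613935 to 39755475. The strand setting of the counting is not given in the sources used here, so reads of the overlapping pairs may not be told apart. Ccdc86 and Fyco1 reached 27.6 and 27.7 CPM, the counts scaled to a common library total, in CD45+ libraries, which is above every Ptgdr2 value.

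Start-site sequences from RefSeq on GRCm38.p6 matched 6 of the 8 genes, and those of Klrg1 and Icos were not used here. Each spans 250 bases before and 50 after an annotated start, and was searched on both strands for AGATAA and TGATAA, letters that GATA factors such as GATA3 bind, and for AGGTCA, a half-site of the ROR family of nuclear receptors. Of 32851 mouse start-site sequences, 11.2% held AGATAA, 9.05% held TGATAA and 16.3% held AGGTCA. Among the 6 genes, only Pdcd1 held a match, to AGGTCA on the opposite strand, 41 bases before its start. The Hs3st1 sequence, chr5:39644582-39644881, lies inside the gene bounds given above, so the start at 39755475 was not searched. The starts used for Il2ra and Cxcr6 differ slightly from the bounds given above. The sequence of 1700061F12Rik is shown because among CD45+ libraries this RNA had counts in Hoil1-/- ones only, on chr2:9189265-9189564 of the plus strand, and held none of the searched letters. For Pdcd1 the 250 bases before its start are shown, on chr1:94052554-94052803 read along the minus strand, with the match in capitals.
1700061F12Rik: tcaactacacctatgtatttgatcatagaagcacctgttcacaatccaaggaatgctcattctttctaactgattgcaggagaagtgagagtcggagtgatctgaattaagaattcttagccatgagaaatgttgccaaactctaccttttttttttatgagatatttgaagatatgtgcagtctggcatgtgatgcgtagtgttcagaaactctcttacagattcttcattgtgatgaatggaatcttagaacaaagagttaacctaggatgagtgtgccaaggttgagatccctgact
Pdcd1: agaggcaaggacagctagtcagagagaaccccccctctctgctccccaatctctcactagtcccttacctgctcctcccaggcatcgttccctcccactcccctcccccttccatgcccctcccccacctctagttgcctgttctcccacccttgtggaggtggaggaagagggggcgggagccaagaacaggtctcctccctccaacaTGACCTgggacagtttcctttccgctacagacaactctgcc

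The CD45+ libraries held 25222721 to 76807504 counts on genes in Hoil1+/+ and 14938629 to 52267821 in Hoil1-/- mice, and the 12 CD45- libraries held 6028275 to 68345191. Levels in CPM are after TMM scaling over the 12 libraries of a fraction. A level of 3 counts, taken as the smallest that the depth can show, was 0.0341 to 0.163 CPM in CD45+ and 0.0398 to 0.495 CPM in CD45- libraries. This floor covers counting error only, since the libraries were amplified by PCR. Ptprc, which encodes CD45, was at 228 to 664 CPM in CD45+ and 0 to 17.9 CPM in CD45- libraries. Rbck1 was at 79.5 to 137 CPM in Hoil1+/+ and 4.72 to 13.9 CPM in Hoil1-/- CD45+ libraries. The study left out 3 libraries as outliers, which are the CD45+ replicates 13 (Hoil1-/- f/f) and 24 (Hoil1-/- ΔIEC) and the CD45- replicate 23 (Hoil1-/- f/f). Tests used the other 10 CD45+ and 11 CD45- libraries, and levels are shown for all. In these sorted mixtures, a difference in the number of cells of a type and a difference in RNA per cell cannot be told apart.

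Klrg1 and 1700061F12Rik were the members whose levels followed the Hoil1 genotype. Klrg1 was at 4.73, 3.68 and 3.62 CPM in replicates 12, 18 and 19 of Hoil1+/+ f/f mice, and 10.1, 6.70 and 3.09 CPM in replicates 20, 21 and 22 of Hoil1+/+ ΔIEC mice. It was at 31.1, 70.1 and 20.3 CPM in replicates 13, 14 and 15 of Hoil1-/- f/f mice, and 37.2, 27.7 and 31.2 CPM in replicates 16, 17 and 24 of Hoil1-/- ΔIEC mice. All 6 Hoil1-/- libraries were above all 6 Hoil1+/+ libraries, including both that the study left out. The mean was 36.3 ± 17.5 CPM (SD, n = 6) in Hoil1-/- mice, 6.81 times the 5.33 ± 2.68 CPM (SD, n = 6) of Hoil1+/+ mice. The fitted log2 difference was 2.88 (SE 0.40) with the 10 libraries and 2.80 (SE 0.36) with all 12. Within f/f mice it was 3.51 (SE 0.57) and within ΔIEC mice 2.26 (SE 0.55).

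Not 1 count of 1700061F12Rik was found in the 6 Hoil1+/+ CD45+ libraries. It was at 8.38 CPM in replicate 14 (497 counts), 0.619 CPM in replicate 15 (20 counts) and 0 CPM in replicate 13 of Hoil1-/- f/f mice. In Hoil1-/- ΔIEC mice it was at 3.39, 2.12 and 3.91 CPM in replicates 16, 17 and 24, from 108, 39 and 100 counts. The RNA was thus detected in 5 of 6 Hoil1-/- libraries, and replicate 13, where 3 counts would be 0.105 CPM, did not show it. Against the highest floor of a Hoil1+/+ library, 3 counts or 0.0935 CPM, the mean of the 6 Hoil1-/- libraries was at least 32.8-fold higher, and without replicate 14 at least 21.5-fold higher. This gene passed the filter on low counts only through the Hoil1-/- libraries.

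Complete separation of the genotypes in the direction of Klrg1 was rare. With all 12 libraries, every Hoil1-/- library was above every Hoil1+/+ library for 1 of the 8 members, Klrg1, and for 0.143% of 16060 genes tested. With the 10 libraries of the study's list it was so for 2 of 8 members, Klrg1 and 1700061F12Rik, and for 0.705% of 17029 genes tested. Since these levels chose the genes, nothing is read from the difference between the shares.

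**Figure D1:**
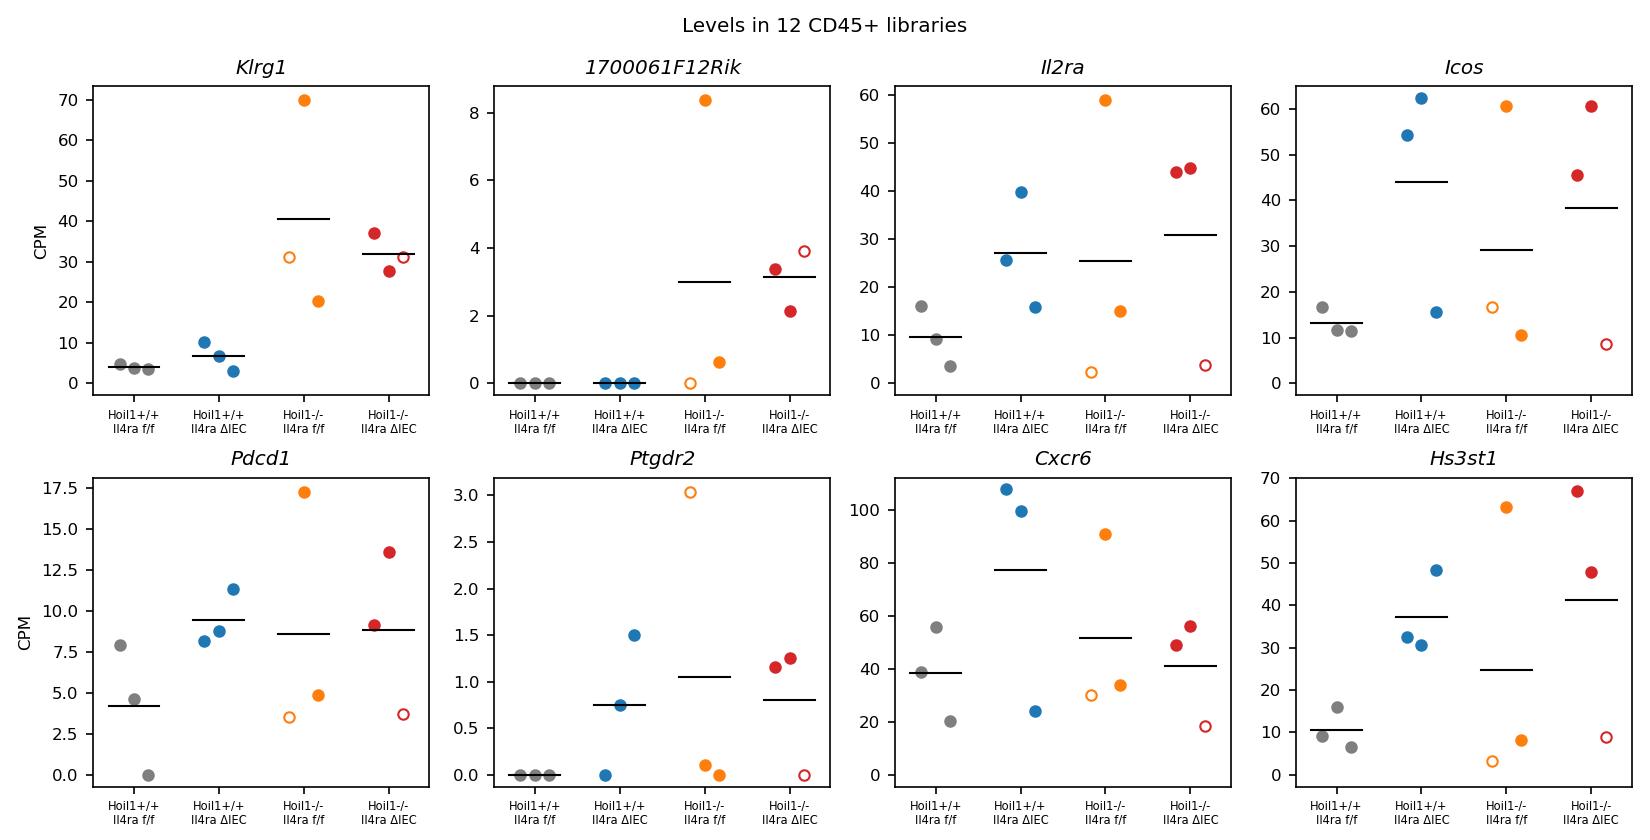
Levels of the 8 genes in CPM (vertical axes, linear) in the 12 CD45+ libraries, by genotype, with 3 points and a bar at the mean for each; open points are the libraries that the study left out. Klrg1 lies between 20.3 and 70.1 CPM in Hoil1-/- and between 3.09 and 10.1 CPM in Hoil1+/+ libraries, and the other receptors overlap between the genotypes.

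The remaining surface receptors did not separate by Hoil1 genotype. Il2ra was at 16.002, 9.20 and 3.64 CPM in replicates 12, 18 and 19 (Hoil1+/+ f/f), and 25.7, 39.8 and 15.97 CPM in replicates 20, 21 and 22 (Hoil1+/+ ΔIEC). In Hoil1-/- mice it was at 2.45, 59.1 and 15.0 CPM in replicates 13, 14 and 15 (f/f), and 44.0, 44.9 and 3.84 CPM in replicates 16, 17 and 24 (ΔIEC). The Hoil1-/- libraries held both the highest and the lowest values, 24.1-fold apart. The fitted log2 difference between Hoil1 genotypes was 1.32 (SE 0.46) with the 10 libraries and 0.80 (SE 0.71) with all 12.

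Icos was at 16.6, 11.6 and 11.5 CPM in replicates 12, 18 and 19, and 54.2, 62.3 and 15.6 CPM in replicates 20, 21 and 22 of the Hoil1+/+ mice. It was at 16.6, 60.6 and 10.5 CPM in replicates 13, 14 and 15, and 45.5, 60.6 and 8.69 CPM in replicates 16, 17 and 24 of the Hoil1-/- mice. No Hoil1-/- library was above the highest Hoil1+/+ library, and each genotype except Hoil1+/+ f/f held libraries on both sides of 20 CPM. The fitted log2 difference was 0.84 (SE 0.48) with the 10 libraries, 0.47 (SE 0.53) with all 12 and -0.057 without replicate 14, which leaves replicate 15 as the only Hoil1-/- f/f library of the fit.

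Cxcr6, the most abundant member per exon length in Hoil1+/+ mice, was at 38.9, 55.9 and 20.5 CPM in replicates 12, 18 and 19, and 107.8, 99.7 and 23.99 CPM in replicates 20, 21 and 22. In Hoil1-/- mice it was at 30.1, 90.9 and 33.9 CPM in replicates 13, 14 and 15, and 49.0, 56.2 and 18.3 CPM in replicates 16, 17 and 24. The ranges lay over each other, and the fitted log2 difference was 0.065 (SE 0.45) with the 10 libraries and -0.24 (SE 0.44) with all 12. Pdcd1 ranged from 0 to 11.3 CPM (median 8.05) in the 6 Hoil1+/+ libraries and from 3.53 to 17.3 CPM (median 7.03) in the 6 Hoil1-/- libraries. Its log2 difference was 0.83 (SE 0.88) and 0.47 (SE 0.86) with the 10 and the 12 libraries. Ptgdr2 was sparse, with no count in 6 of the 12 libraries, 6 to 102 counts in the other 6 and a highest value of 3.04 CPM, in replicate 13. Its values ranged from 0 to 1.496 CPM in Hoil1+/+ and from 0 to 3.04 CPM in Hoil1-/- libraries, and no fold is given.

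Hs3st1, the enzyme gene, was at 9.14, 15.9 and 6.51 CPM in replicates 12, 18 and 19, and 32.5, 30.6 and 48.4 CPM in replicates 20, 21 and 22 of the Hoil1+/+ mice. In the Hoil1-/- mice it was at 3.18, 63.2 and 8.11 CPM in replicates 13, 14 and 15, and 67.0, 47.8 and 8.96 CPM in replicates 16, 17 and 24. It thus split the Hoil1-/- libraries into 3 values of at least 47.8 CPM and 3 of at most 8.96 CPM. The log2 difference between Hoil1 genotypes was 1.19 (SE 0.47) with the 10 libraries, 0.69 (SE 0.65) with all 12 and 0.11 without replicate 14.

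Among Hoil1-/- mice, one division ran through 5 of the 8 genes. Il2ra, Icos, Pdcd1, Cxcr6 and Hs3st1 each had their 3 highest Hoil1-/- values in replicates 14, 16 and 17 and their 3 lowest in replicates 13, 15 and 24. For Klrg1 and 1700061F12Rik the 3 highest were replicates 14, 16 and 24, and for Ptgdr2 replicates 13, 16 and 17. Over all 16060 genes tested, 10.4% had the 3 libraries 14, 16 and 17 above the other 3 and 6.63% had them below. The libraries were picked from the members' own values, so nothing is read from the difference between the shares. Of the 3 low libraries the study left out 13 and 24 and kept 15. By the labels, mice of replicates 14, 16 and 17 were 9.9, 9.6 and 9.6 weeks old. Those of replicates 13, 15 and 24 were younger, at 9, 9.4 and 9.1 weeks. The division and age therefore cannot be told apart in these libraries, and the part of age was not tested. Replicate 24 had 31.2 CPM of Klrg1 and 3.91 CPM of 1700061F12Rik beside only 3.84 CPM of Il2ra and 8.69 CPM of Icos. The spread over the 6 Hoil1-/- libraries was smallest for Klrg1, with a coefficient of variation of 48.1%. The coefficient was 55.3% for Cxcr6, 66.0% for Pdcd1, 73.1% for Icos, 85.6% for Il2ra and 89.5% for Hs3st1. It was largest for the 2 genes with Hoil1-/- libraries at 0 counts, 98.0% for 1700061F12Rik and 128% for Ptgdr2.

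**Figure D2:**
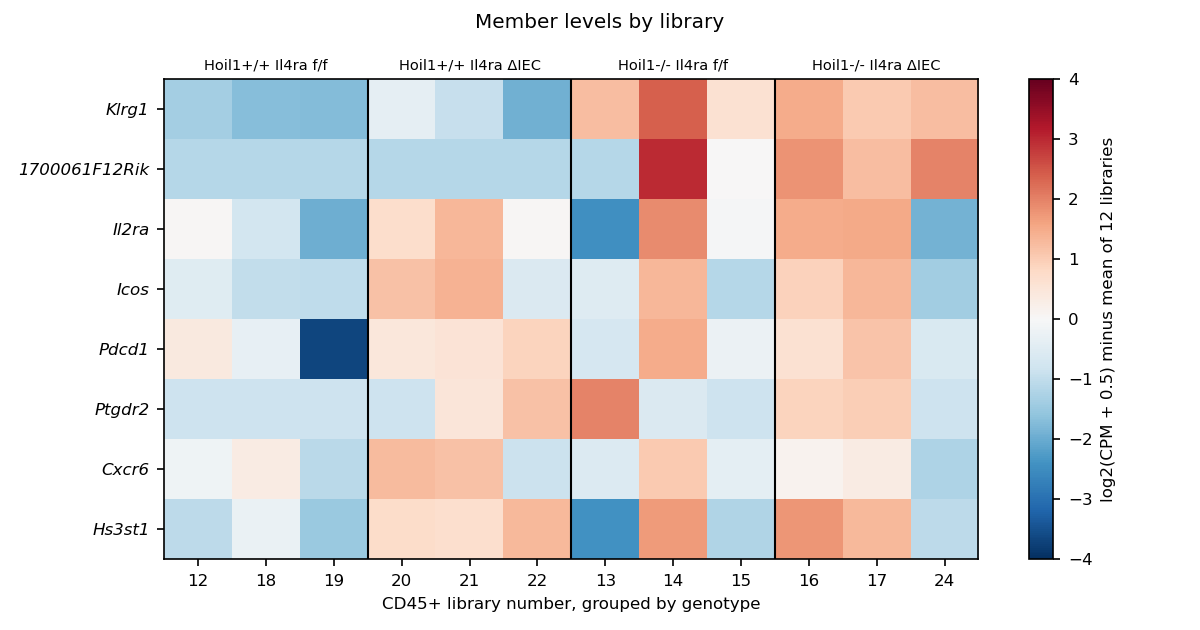
Each row is a gene and each column a CD45+ library, labelled by its number and grouped by genotype, and colour gives log2(CPM + 0.5) minus the mean of the 12 libraries. Klrg1 is above its mean in all 6 Hoil1-/- libraries, while Il2ra, Icos, Pdcd1, Cxcr6 and Hs3st1 are above theirs in replicates 14, 16 and 17 and below theirs in replicates 13, 15 and 24.

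Markers of other cells also differed between these libraries. The summed level of 11 T cell markers, among them Cd3e, was 850, 1378 and 1274 CPM in replicates 13, 14 and 15 and 968, 868 and 517 CPM in replicates 16, 17 and 24, against 475 to 3019 CPM in Hoil1+/+ libraries. The summed level of 7 regulatory T cell markers, cells in which Il2ra and Icos are also known to be active, was 286, 202 and 186 CPM in replicates 14, 16 and 17 and 56.8, 70.2 and 46.7 CPM in replicates 13, 15 and 24. It thus divided the libraries as Il2ra and Icos did. Ctla4, a large part of this sum, was at 118, 106 and 96.5 CPM against 15.1, 10.1 and 15.1 CPM. It is also the gene nearest to Icos in profile, as given below, so this likeness is no separate evidence. Foxp3 had a median of 6.76 CPM over the 12 CD45+ libraries. The sum of 6 ILC3 markers divided the libraries in the same way, with 112, 119 and 140 CPM against 19.6, 33.6 and 11.9 CPM. So did the sums of 6 follicular helper T cell markers, of 18 other ILC2 genes and of 10 signaling genes. The other ILC2 genes summed to 1753, 1416 and 1229 CPM in replicates 14, 16 and 17 against 539, 626 and 368 CPM. The follicular helper markers summed to 123, 152 and 222 CPM against 56.5, 77.8 and 22.2 CPM. Medians over the 12 CD45+ libraries were 36.6 CPM for Bcl6, 28.1 for Cxcr5 and 20.5 for Tox2. They were 7.16 for Cd40lg, 3.03 for Sh2d1a and 0.977 for Il21, and which cells gave this sum was not tested. The sum of 9 mast cell, basophil and eosinophil markers divided the libraries the opposite way, with 301, 385 and 170 CPM against 840, 406 and 889 CPM. Of the lists in this paragraph only the mast cell, basophil and eosinophil list had a gene at 0 in all 12 libraries, and it was 1 of 9. The part of these cells in the member levels was not tested. Replicate 24 also had the highest Hoil1-/- level of B cell and plasma cell markers, with a summed 36355 CPM against 7816 to 29930 CPM in the other 5. Across the Hoil1 genotypes, 6 endothelial and stromal markers summed to 93.5 to 215 CPM in Hoil1-/- and 63.9 to 106 CPM in Hoil1+/+ libraries, and their part in the member levels was not tested either.

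Compared per exon length, the order of the genes changed with genotype. In Hoil1+/+ libraries the median RPKM, the CPM divided by the exon length in kilobases, was 24.5 for Cxcr6, 10.4 for Hs3st1, 4.69 for Icos, 4.17 for Pdcd1, 2.97 for Klrg1 and 2.80 for Il2ra, with 1700061F12Rik and Ptgdr2 at 0. The ranges of neighbours among the first 6 overlapped, and those of Il2ra and Ptgdr2 did not, at no less than 0.638 and no more than 0.566 RPKM. In Hoil1-/- libraries the median was 22.01 RPKM for Klrg1, level with 21.5 RPKM for Cxcr6, then 12.7 for Hs3st1, 9.05 for Icos, 5.16 for Il2ra, 3.64 for Pdcd1, 3.15 for 1700061F12Rik and 0.239 for Ptgdr2. Here too the ranges of neighbours overlapped, and the lowest Klrg1 value was 14.4 RPKM, above the 10.3 RPKM of the highest Il2ra value.

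The genes whose level followed each member most closely over the 12 CD45+ libraries were sought by the root mean square (RMS) difference of their log2(CPM + 0.5) profiles, each centred on its mean, over the 16060 genes tested with the members left out. Since they were picked for likeness, their pattern is no separate evidence. For Klrg1 they were Nmur1, the receptor of the neuropeptide neuromedin U, at 0.62, Pcsk1, a prohormone convertase, at 0.64, and Il1rl1, the receptor of IL-33, at 0.66, where the median over all genes was 1.57. Nmur1 was at 1.45 to 4.40 CPM in Hoil1+/+ and 12.8 to 81.6 CPM in Hoil1-/- libraries. Il1rl1 was also the next nearest for 1700061F12Rik, at 0.80, after Npnt, which encodes the matrix protein nephronectin, at 0.66 and before Atp1b2, a subunit of the sodium pump, at 0.87. Npnt was at 1.62 to 8.38 CPM in Hoil1+/+ and 4.16 to 31.9 CPM in Hoil1-/- libraries, so its groups overlapped.

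The receptors that did not separate by genotype lay nearest to other genes. Icos was nearest to Ctla4, an inhibitory receptor of T cells, at an RMS difference of 0.45, followed by Podnl1 at 0.46 and Fam69b at 0.49, the last of these at no more than 2.16 CPM. Cxcr6 was nearest to Trbc1, a constant segment of the T cell receptor, at 0.17, to Lat, an adaptor of T cell receptor signals, at 0.27 and to Thy1, which encodes CD90, at 0.28. Trbc1 has a near-identical copy, so its own counts are uncertain. Podnl1 was also nearest to Il2ra, at 0.52, before Slc27a6 and Psd2, both at 0.59. Hs3st1 was nearest to the potassium channel gene Kcnk1, at 0.52, before the pseudogenes Gm8738 and Slfn10-ps. For Pdcd1 the nearest were Cchcr1 at 0.67, Tnfsf14 and 4931428F04Rik at 0.71, and for the sparse Ptgdr2 Ptpru, Mid1 and Gm13373. Among the members themselves, the closest pairs were Icos and Cxcr6 at 0.60, Il2ra and Hs3st1 at 0.70, Il2ra and Icos at 0.80, and Klrg1 and 1700061F12Rik at 0.87. Klrg1 and Hs3st1 were 1.795 apart.

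**Figure D3:**
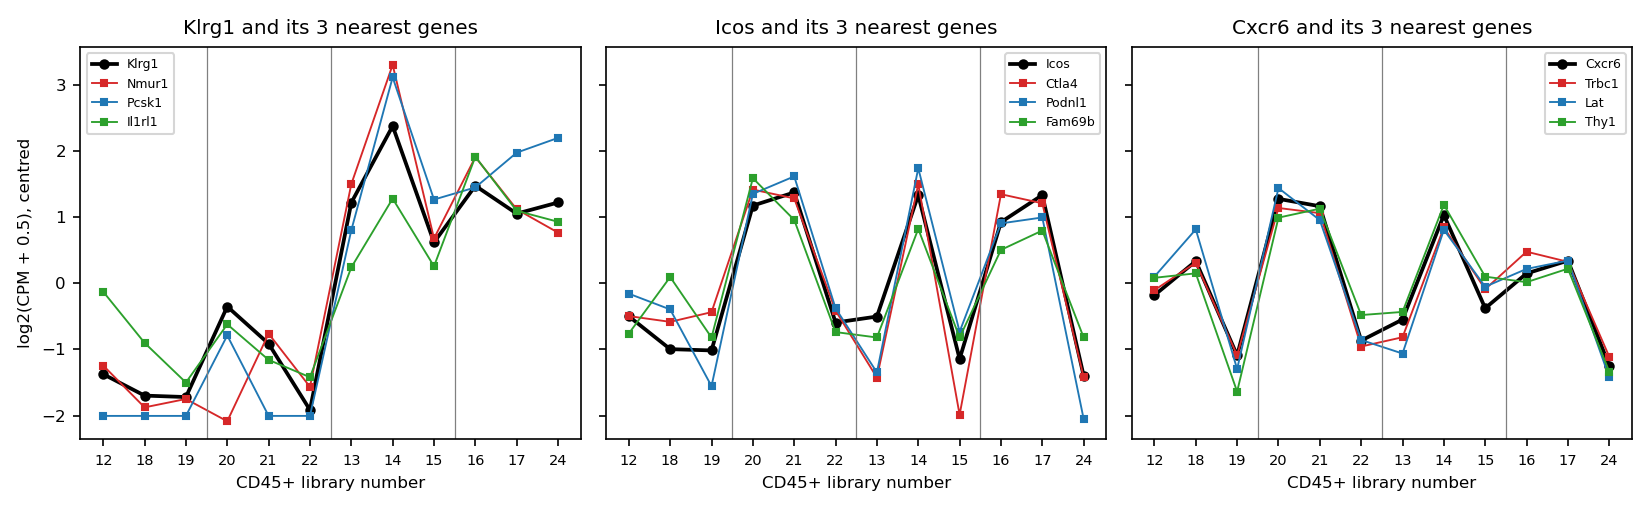
Level as log2(CPM + 0.5) centred on the mean of the 12 CD45+ libraries (vertical axis) against library number, with the Hoil1+/+ libraries on the left, the Hoil1-/- libraries on the right and f/f before ΔIEC in each, parted by grey lines, for Klrg1, Icos and Cxcr6 (black) and the 3 nearest genes of each. Klrg1 and Nmur1 step up between Hoil1+/+ and Hoil1-/- libraries, while Icos is above its mean in replicates 20, 21, 14, 16 and 17 and Cxcr6 in these and in replicate 18.

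Deletion of Il4ra in IECs asks whether the members depend on epithelial responses to IL-4 and IL-13, but the genes were listed with their levels in all 4 genotypes known. Their values are therefore a description here too. The gene-level Il4ra count of CD45- cells, which hold other cells beside IECs, did not separate the genotypes, at 63.7 to 173 CPM in f/f and 51.4 to 135 CPM in ΔIEC libraries of Hoil1+/+ mice and 67.8 to 90.0 CPM and 74.4 to 145 CPM in those of Hoil1-/- mice. The counts therefore give no check of the deletion. In Hoil1+/+ mice, every ΔIEC library was above every f/f library for 2 of 8 members, Hs3st1 and Pdcd1, beside 6.44% of 16060 genes tested, and nothing is read from these shares. Hs3st1 averaged 37.2 ± 9.74 CPM (SD, n = 3) in ΔIEC and 10.5 ± 4.86 CPM (SD, n = 3) in f/f mice. Icos averaged 44.0 ± 25.0 CPM (SD, n = 3) and 13.3 ± 2.93 CPM (SD, n = 3), with replicate 22 of the ΔIEC mice at 15.6 CPM, inside the f/f range.

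Averaged over the Hoil1 genotypes, the log2 difference of ΔIEC from f/f was 1.27 (SE 0.49) for Hs3st1, 1.18 (SE 0.49) for Icos, 0.90 (SE 0.47) for Il2ra, 0.63 (SE 0.90) for Pdcd1, 0.41 (SE 0.45) for Cxcr6 and 0.15 (SE 0.39) for Klrg1. 1700061F12Rik and Ptgdr2 are left out, since whole groups had no count of them. Over all 17029 genes, 0.00587% passed the quasi-likelihood test of edgeR for Il4ra and 10.6% had an unadjusted p under 0.05.

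Xist, a transcript of female cells, was unevenly spread over the genotypes. It was at 144 to 244 CPM in 5 CD45+ libraries, replicates 13, 14, 17, 20 and 21, and at most 0.693 CPM in the other 7. In Hoil1+/+ mice the high libraries were 2 of 3 from ΔIEC and 0 of 3 from f/f mice, and in Hoil1-/- mice 1 of 3 from ΔIEC and 2 of 3 from f/f mice. With Xist as a covariate the Il4ra difference was 0.63 for Icos, 0.59 for Il2ra and 1.25 for Hs3st1, and it turned to -0.17 for Cxcr6 and -0.18 for Klrg1. Without replicate 14, the highest Hoil1-/- f/f library, it was 2.07 for Icos and 2.36 for Hs3st1, with replicate 15 as the only library of that genotype.

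The interaction asks whether the Hoil1 difference itself changed with epithelial Il4ra. For each of 6 members it was negative, that is, the Hoil1 difference was lower in ΔIEC than in f/f mice. Of all 17029 genes, 44.3% had an interaction above 0, and the median was -0.11. On the log2 scale the interaction was -1.25 (SE 0.79) for Klrg1, -1.28 (SE 0.94) for Il2ra, -1.21 (SE 0.98) for Icos, -1.18 (SE 1.795) for Pdcd1, -1.30 (SE 0.91) for Cxcr6 and -1.18 (SE 0.96) for Hs3st1. For Cxcr6 the Hoil1 difference changed sign, from 0.72 (SE 0.63) in f/f to -0.58 (SE 0.65) in ΔIEC mice. Over all 17029 genes, 0% passed the quasi-likelihood test of edgeR for the interaction, 7.01% had an unadjusted p under 0.05, and 68 and 156 genes passed by the likelihood ratio test and DESeq2. All 6 values share the same 10 libraries, and replicate 14 weighed on them. Without it, and so with replicate 15 alone for Hoil1-/- f/f mice, the value was 0.58 for Icos, 0.99 for Hs3st1, 0.046 for Il2ra and 0.026 for Pdcd1, against -0.079 for Klrg1 and -0.40 for Cxcr6.

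**Figure D4:**
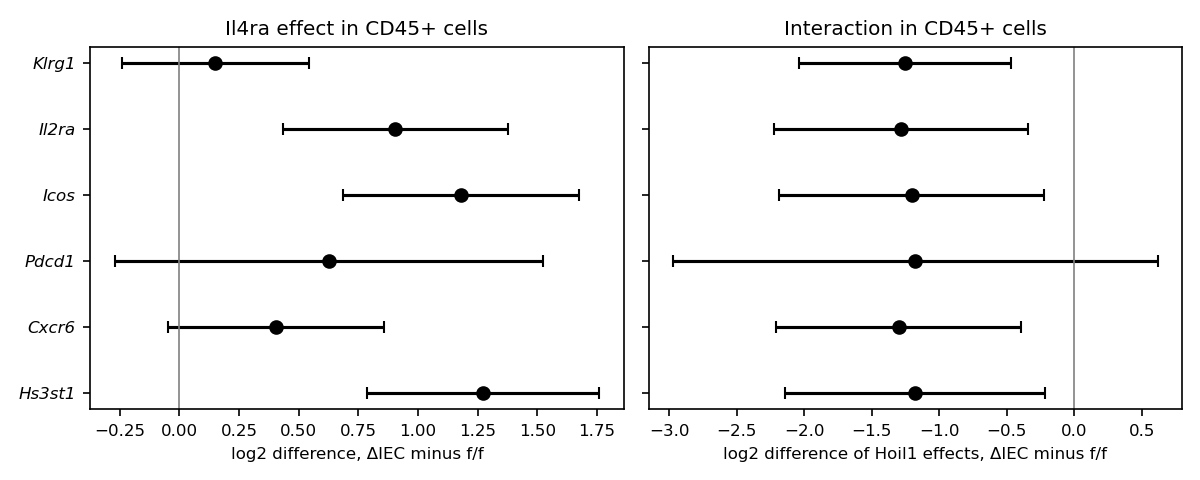
Log2 differences with bars of 1 standard error for 6 genes in 10 CD45+ libraries, as ΔIEC minus f/f averaged over the Hoil1 genotypes (left) and as the Hoil1 difference in ΔIEC minus that in f/f mice (right). The Il4ra differences run from 0.15 for Klrg1 to 1.27 for Hs3st1, and the interactions all lie near -1.2 with standard errors from 0.79 for Klrg1 to 1.795 for Pdcd1.

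In CD45- cells, most members had few or no counts. No CD45- library had a count of Klrg1 or 1700061F12Rik, and Pdcd1 was at 0.735 CPM in 1 library and at 0 in the other 11. Icos reached 1.57 CPM, Ptgdr2 2.4997 CPM, Cxcr6 6.18 CPM and Il2ra 10.4 CPM. The highest Il2ra, Icos and Cxcr6 values were in the CD45- replicates 9 and 10, both Hoil1+/+ ΔIEC, where Il22, a cytokine gene of ILC3 and T cells, was at 8.86 and 8.23 CPM and at 0 in the other 10. Il2ra was at 10.4 and 2.65 CPM there and Cxcr6 at 2.02 and 6.18 CPM, and the part of immune cells in these values was not tested.

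Hs3st1 was the exception, with counts in all 12 CD45- libraries. It was at 29.3, 59.4 and 51.7 CPM in CD45- replicates 6, 7 and 8, and 21.2, 24.3 and 52.9 CPM in replicates 9, 10 and 11 of the Hoil1+/+ mice. In the Hoil1-/- mice it was at 16.5, 36.3 and 75.7 CPM in replicates 1, 2 and 23, and 58.3, 56.6 and 81.2 CPM in replicates 3, 4 and 5. The genotypes overlapped, with a log2 difference of 0.079 (SE 0.33, adjusted p = 1.00 from edgeR) in the 11 libraries, where 0.0182% of 16453 genes passed. Over all 12 it was 0.43 (SE 0.37). The fractions were scaled separately, so their levels are set side by side without a test.

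**Figure D5:**
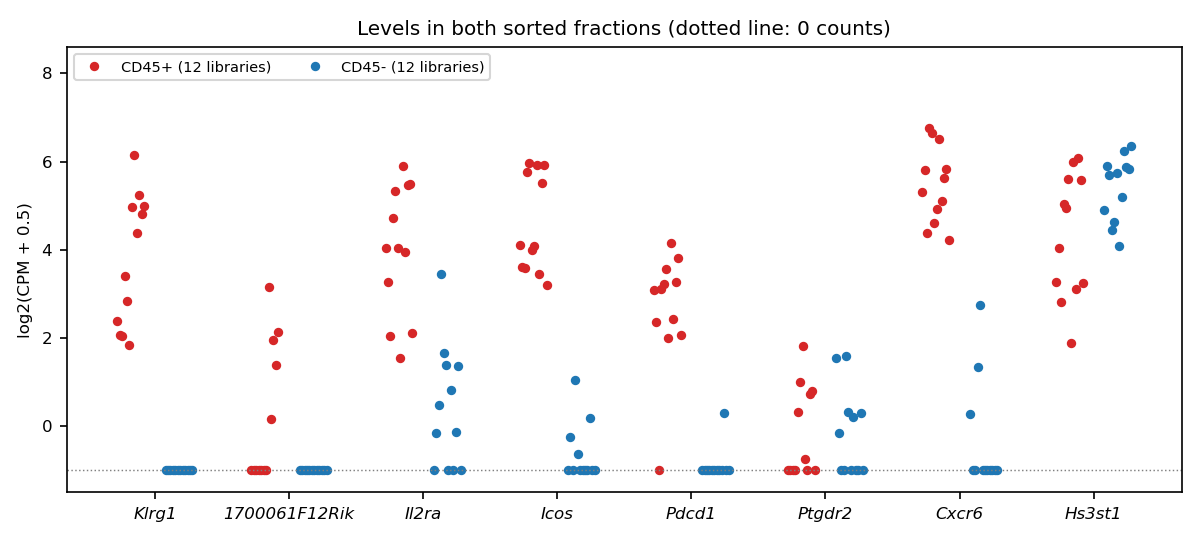
Levels of the 8 genes as log2(CPM + 0.5) in 12 CD45+ (red) and 12 CD45- (blue) libraries, one point each, with a dotted line at 0 counts. Klrg1 and 1700061F12Rik lie on that line in all CD45- libraries, and Hs3st1 spans 16.5 to 81.2 CPM there.

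Of 13 ligands and partners of the members, none passed the Hoil1 test. In CD45+ cells 0 of 11 tested passed, with a median log2 difference of 0.14 against -0.05 over all genes. Of all genes there 0.00587% passed, which was the mutated Rbck1 alone, so a count of 0 says little of a list. In CD45- cells 0 of 11 passed, with a median of -0.22 against -0.08. None had an unadjusted p under 0.05 in either fraction, and none passed by the likelihood ratio test or DESeq2. In CD45- cells 5.28% of all genes had an unadjusted p under 0.05. Of 16453 genes there, 38 passed as higher and 97 as lower in Hoil1-/- mice by the likelihood ratio test. By DESeq2 these were 38 and 128. Cdh1, which encodes E-cadherin, a ligand of KLRG1, was the most abundant partner in CD45- cells, at 227 to 616 CPM (median 404) in Hoil1+/+ and 140 to 669 CPM (median 342) in Hoil1-/- libraries. Its log2 difference was -0.15 (SE 0.31, adjusted p = 1.00 from edgeR). Cdh2, the N-cadherin ligand, reached 14.9 CPM.

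The other chains of the IL-2 receptor were higher than Il2ra per exon length in CD45+ cells. Il2rg, the common gamma chain, was at 98.6 to 129 CPM in Hoil1+/+ and 79.6 to 181 CPM in Hoil1-/- libraries, with a log2 difference of 0.32 (SE 0.15, adjusted p = 0.783 from edgeR). Il2rb, the beta chain, was at 58.8 to 340 CPM and 45.5 to 197 CPM, while Il2 itself did not exceed 1.10 CPM. Per exon length the median in Hoil1-/- libraries was 58.4 RPKM for Il2rg and 38.6 RPKM for Il2rb, against 5.16 RPKM for Il2ra. Cxcl16, the ligand of CXCR6, was at 211 to 441 CPM in Hoil1+/+ and 148 to 435 CPM in Hoil1-/- CD45+ libraries and at 3.34 to 69.1 CPM in CD45- libraries. Cd274, which encodes the PD-1 ligand PD-L1, was at 64.9 to 327 CPM and Icosl, the ligand of ICOS, at 32.6 to 113 CPM in CD45+ libraries. Hpgds, the synthase of prostaglandin D2 in hematopoietic cells, was at 9.32 to 50.4 CPM there, and Ptgds had no count in any of the 24 libraries.

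Proteins that pass on the members' signals and the enzymes that build heparan sulfate also showed no call. Of 10 signaling genes, among them the kinase gene Jak1 and the phosphatase gene Ptpn6, 0 of 10 passed in CD45+ cells. There Rbck1 alone passed, 0.00587% of all genes. The median log2 difference of the 10 was 0.01, and none had an unadjusted p under 0.05, beside 5.85% of all genes. In CD45- cells 0 of 10 passed, beside 0.0182% of all genes, and 1, Ptpn6, was under 0.05 unadjusted, beside 5.28%. Of 13 heparan sulfate genes 0 of 10 tested passed in each fraction, with medians of -0.02 and -0.08 and none under 0.05 unadjusted. None of these genes passed by the likelihood ratio test or DESeq2 either.

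Other genes known from ILC2 gave the setting for the members. Of 18, 0 passed the quasi-likelihood test for the Hoil1 difference in CD45+ cells, where Rbck1 alone passed of all genes. An unadjusted p under 0.05 was found for 12, beside 5.85% of all genes. By both the likelihood ratio test and DESeq2, 9 were higher and passed, beside 0.458% and 0.429% of all genes. The median log2 difference of the 18 was 2.12, against -0.05 over all 17029 genes. With all 12 libraries, 4 of the 18 had every Hoil1-/- library above every Hoil1+/+ library, beside 0.143% of all genes tested. The list was written with earlier results of these data known and is not independent evidence of its direction. The log2 difference was 3.79 (SE 0.51) for Il17rb, the IL-25 receptor chain, 3.77 (SE 0.51) for Nmur1 and 2.86 (SE 0.40) for the hypoxia factor gene Epas1. For all 3 edgeR gave an adjusted p of 0.0968. For Il1rl1 the difference was 2.17 (SE 0.35), with an edgeR adjusted p of 0.250. Il5 was at 8.93 (SE 1.53), with no count in 5 of the 12 libraries, and Il13 at 4.24 (SE 0.96). Of the 18 differences, 16 were above 0, beside 45.1% of all 17029 genes. With all 12 libraries 15 were above 0, beside 48.0% of 16060 genes. Csf2 at -0.60 (SE 0.68) and Crlf2 at -0.18 (SE 0.19) were below 0, and Thy1, Bcl11b and Id2 were at 0.21, 0.21 and 0.23. Without the filter on low counts 3 of the 18 passed, Epas1, Il17rb and Nmur1. Without replicate 15, 4 passed, Arg1, Epas1, Il17rb and Nmur1, in a fit where replicate 14 was the only Hoil1-/- f/f library and was assumed to vary like the other groups. In replicate 24, Il17rb was at 1.29 CPM and Nmur1 at 13.6 CPM.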

How the data were processed

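RNA-Seq gene counts of 12 CD45+ and 12 CD45- libraries of sorted mouse ileum cells were used. Reads were trimmed (cutadapt), mapped to mm10 (STAR) and assigned to ENSEMBL genes (featureCounts) by the authors, who deposited raw counts of 39056 genes without normalization. Versions and counting options are not given in the sources used here. Libraries were made from poly-A RNA and amplified by PCR. Gene IDs were matched to GENCODE M21, 34299 with their version and 4573 without it, and 184 were not matched.

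The 8 members and all gene lists were chosen with earlier results of these data known. From the counts, CPM were computed with TMM scaling of edgeR 4.0.16 over the 12 libraries of a fraction. Differences were tested in each fraction with the quasi-likelihood test of edgeR in R 4.3.3, with a mean for each of the 4 genotypes, genes kept by its filter (minimum count 10, minimum total 15), two-sided p-values adjusted by Benjamini-Hochberg over all genes tested, and a threshold of 0.05. The design follows the study's model of Hoil1, Il4ra and their interaction, with its list of 10 CD45+ and 11 CD45- libraries. By its own edgeR fit the study reported Nmur1, 1700061F12Rik, Klrg1, Il5, Il17rb, Epas1 and Rbck1 as differing by Hoil1 genotype in CD45+ cells. In CD45- cells it reported Rbck1 alone. Its calls thus differ from those of the quasi-likelihood test here, and the cause was not tested. For the members in CD45+ cells only the fitted differences are given. Total counts were 14938629 to 76807504 in CD45+ and 6028275 to 68345191 in CD45- libraries. Beside the library numbers, the labels give ages, which differ within a group for some libraries and are equal for others. The labels say nothing more of how libraries of a group were separated, so p-values measure the spread between these libraries. None of the 24 pairs of libraries within a group agreed within sampling noise, with a lowest chi-square per degree of freedom of 39.6.

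Alternatives were all libraries, edgeR's likelihood ratio test, DESeq2 1.42.0, RLE scaling, no filter, Xist or age as a covariate, each library left out in turn, CPM by total counts, and a pseudocount of 1 in place of 0.5 CPM in the profiles. The fits were first run on simulated counts in which some genes had set changes and each gene varied independently. Such counts lack the shared shifts between libraries seen here, so nothing is read from them on the error of the tests. Named genes are the members, the 3 genes nearest to each in profile, the ligands and partners, of other lists the genes that passed a test and otherwise at most the 4 most abundant, and Rbck1, Ptprc, Il4ra and Xist. Il22, Il17rb, Epas1, Arg1, Gata3, Il5, Il13, Csf2, Crlf2, Bcl11b, Id2, Il21, Sh2d1a, Ccdc86 and Fyco1 fall outside this rule and were named after values were seen. Start-site sequences came from RefSeq.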

Additional observations from a re-analysis of the deposited data

How the results depend on the processing

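The counts of genes past the threshold rested on the test more than the member values did. For the Hoil1 difference in CD45+ cells 1 gene passed, against 2 with all 12 libraries, 103 by the likelihood ratio test, 125 by DESeq2, 6 without the filter, 2 with age as a covariate and 1 to 10 when single libraries were left out, with 10 without replicate 15. For Il4ra 1 passed, against 0 with all 12 libraries, 201 by the likelihood ratio test, 308 by DESeq2, 0 with Xist and 2 with age as a covariate, and 0 to 8 without single libraries, with 8 without replicate 19. For the interaction 0 passed, against 68 by the likelihood ratio test and 156 by DESeq2. For the Hoil1 difference in CD45- cells 3 passed, against 0 with all 12 libraries, 135 by the likelihood ratio test, 166 by DESeq2, 1 with RLE, 1 with Xist and 1 with age, and 1 to 173 without single libraries, with 173 without replicate 2. The cause of these changes was not tested. Over 6 members, 4 repeats of the Il4ra difference and 5 of the interaction turned direction. Leaving out CD45+ replicate 14, 15, 16 or 17 or CD45- replicate 1 or 2 leaves 1 library in that genotype, assumed to vary like the other groups. With Xist as a covariate the Il4ra difference turned to -0.18 for Klrg1 and -0.17 for Cxcr6 and the interaction to 0.12 for Icos. Without single libraries, the Il4ra difference of Klrg1 ran from -0.17 without replicate 15 to 0.74 without replicate 14 (-0.073 without replicate 20), and the interaction from -1.97 to 0.046 for Il2ra, from -1.98 to 0.58 for Icos, from -2.02 to 0.026 for Pdcd1 and from -2.01 to 0.99 for Hs3st1, where each positive value was that without replicate 14. In CD45- cells the Hoil1 difference of Hs3st1 ran from -0.26 without replicate 2 to 0.35 without replicate 11, and that of Cdh1 from -0.32 without replicate 5 to 0.043 without replicate 6. With all 12 libraries the difference of Icosl turned from -0.54 to 0.092 and that of Cxcl16 from 0.20 to -0.063. Members with every Hoil1-/- above every Hoil1+/+ library numbered 1 with all 12 libraries and with CPM by total counts, and 2 with the 10 libraries of the study. Of the 24 nearest genes, 17 were the same with a pseudocount of 1 CPM. No paired analysis was possible because the labels give the groups no shared replicate numbers. Ptgdr2 and 1700061F12Rik have few counts or none in many libraries, and each Hoil1-/- genotype had 2 CD45+ libraries in the tests.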
